A study of Mus musculus with 18 samples.

Results

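The Wnt pathway genes described here were the protein-coding genes of the table whose symbols belong to Wnt ligands, their receptors and secreted antagonists, the R-spondin axis, the CCN (Wisp) family, ligand secretion or the intracellular core of the pathway. A total of 42 genes met this rule, of 15224 genes in all and 12975 protein-coding ones. All 42 passed the filter on low counts, as did all 15224 genes. They comprised 7 ligands, 2 genes of ligand secretion, 9 frizzled receptors, 4 co-receptors, 4 genes of the R-spondin axis, 7 secreted antagonists, 7 intracellular genes and 2 CCN genes.

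The values are RNA sequencing counts of whole quadriceps, a thigh muscle, from C57/Bl6 mice aged 2 months (young) or 17 months (old), with 3 libraries in each of 6 groups. Floxed controls had Pofut1flox/flox alleles without any Cre transgene. In Cre controls the recombinase was expressed from the skeletal alpha actin promoter, a fibre promoter, on a background with intact Pofut1. The knockout combined the floxed alleles with that transgene. Cells of the muscle other than fibres thus keep Pofut1, the enzyme that adds O-fucose to EGF-like repeats of Notch receptors and other proteins. No group lacked both the floxed allele and Cre, and the labels do not say whether libraries came from littermates, so p values measure the spread between these libraries.

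Library totals ran from 24901936 to 31440196 counts, and levels are given as CPM, which are counts scaled to a common library size. The 9 fibre-defining markers, such as Acta1, Ckm and Ttn, summed to between 269000 and 463000 CPM in every library, which matches the labelled tissue. Pofut1 was at 9.30 to 9.61 CPM in young knockout muscle and at 13.8 to 19.6 CPM in young controls. Old knockout libraries 17 and 45 had 10.6 and 10.5 CPM, whereas 16.3 CPM was found in the library labelled old knockout 40, a level within the 12.7 to 18.3 CPM of old controls. Xist, which coats the inactive X chromosome, was above 10 CPM (high Xist) in 1 of 3 libraries of every young group and in 2 of 3 of every old group, so age and Xist were partly confounded.

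Wnt proteins are secreted, lipid-modified ligands that bind frizzled receptors on neighbouring cells. With the co-receptors Lrp5 or Lrp6 they halt the breakdown of beta-catenin, which then acts with TCF/LEF factors in the nucleus, while Ror co-receptors and other routes act on cell polarity and calcium. Secreted frizzled-related proteins (Sfrp), Wif1 and Dickkopf proteins act outside the cell, and in skeletal muscle the pathway is known for roles in satellite cells, regeneration and the neuromuscular junction.

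Per kilobase of exon, the levels of the 42 genes spanned more than 2 orders of magnitude. Beta-catenin (Ctnnb1) was the most abundant, with a median of 47.2 CPM per kilobase over the 18 libraries and a range of 37.8 to 54.5. It was followed by the scaffold Dvl1 at a median of 13.2 CPM per kilobase, Lrp6 at 11.2 and Fzd4 at 9.32. The destruction complex genes Gsk3b, Apc and Axin1 had medians of 6.28, 5.94 and 3.61 CPM per kilobase. Among receptors the median was 7.35 CPM per kilobase for Fzd7 and 1.28 for Lrp5, the paralogue of Lrp6.

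The ligands had medians below those of 13 other Wnt pathway genes. On the same scale the highest ligand was Wnt9a at a median of 1.90 CPM per kilobase (range 1.41 to 2.59), with Wnt4 at 1.81 (range 1.03 to 2.41), and these ranges overlap. Wnt11 had 0.693, Wnt5a 0.621 and Wnt5b 0.456 CPM per kilobase, and Wnt10b and Wnt2b had 0.172 and 0.0996. The ligand acyltransferase Porcn was at 0.775 and the Wnt carrier Wls at 3.09 CPM per kilobase. The lowest of the 42 genes was the R-spondin receptor Lgr6, at 0.0609 CPM per kilobase and 4 to 39 counts a library. Axin2, a feedback target of beta-catenin, and Znrf3, a ubiquitin ligase that removes frizzled receptors, had medians of 0.794 and 0.528.

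**Figure D1:**
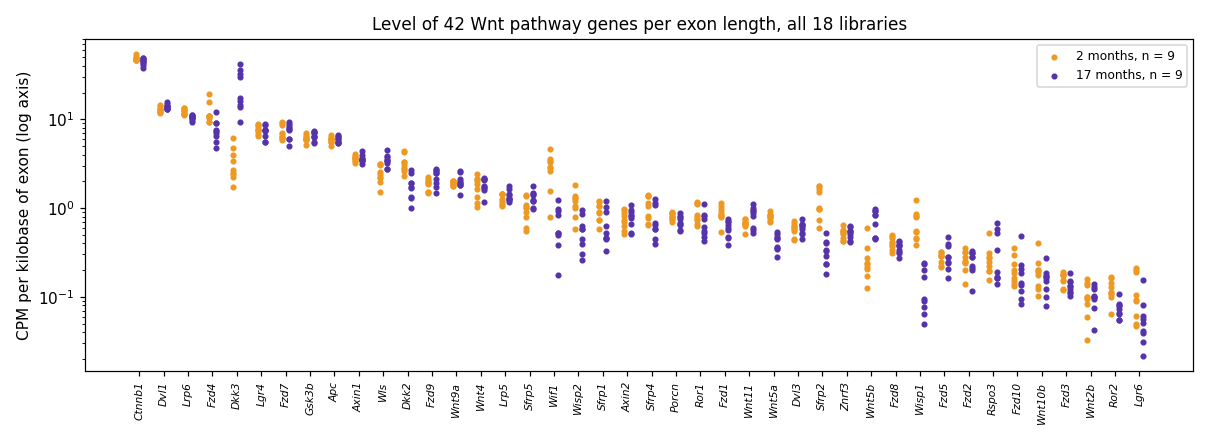
CPM per kilobase of exon (log axis) for each of the 42 Wnt pathway genes in all 18 libraries, ordered by median, with young libraries in orange and old ones in purple (n = 9 each). Ctnnb1 stands at the top with a median of 47.2, the medians of the ligands lie at or below 1.90, and Dkk3 is the gene whose young and old points lie furthest apart among the abundant ones.

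To show the sequence around the starts of the secreted antagonists and ligands with age or knockout differences, 5 promoter windows from RefSeq (GRCm38.p6) are printed 5′ to 3′ on the strand of the gene, each 300 bases long, from 250 bases before the annotated start to 50 after it. Promoters were matched for 26 of the 42 genes, in 30 windows, and for 8 of the 13 genes that passed the test with age in controls. Capitals mark matches to 3 motifs, searched on both strands. The TCF/LEF core was CTTTGAT, read as ATCAAAG on the other strand. The TATA box was TATAAA, read as TTTATA on the other strand. The E-box CAGCTG reads the same on both. Matches to different motifs did not overlap in the windows shown. Shown are Sfrp2 (chr3:83766071-83766370, plus), Wif1 (chr10:121033754-121034053, plus), Dkk2 (chr3:132085042-132085341, plus), the window of Wnt5b with a match (chr6:119449337-119449636, minus) and that of Wnt11 (chr7:98834862-98835161, plus).
Sfrp2: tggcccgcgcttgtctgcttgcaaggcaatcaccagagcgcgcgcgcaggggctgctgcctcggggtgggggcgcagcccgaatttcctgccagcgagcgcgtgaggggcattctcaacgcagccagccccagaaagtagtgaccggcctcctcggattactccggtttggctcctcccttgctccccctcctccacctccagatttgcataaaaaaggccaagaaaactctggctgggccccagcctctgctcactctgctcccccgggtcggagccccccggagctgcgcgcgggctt
Wif1: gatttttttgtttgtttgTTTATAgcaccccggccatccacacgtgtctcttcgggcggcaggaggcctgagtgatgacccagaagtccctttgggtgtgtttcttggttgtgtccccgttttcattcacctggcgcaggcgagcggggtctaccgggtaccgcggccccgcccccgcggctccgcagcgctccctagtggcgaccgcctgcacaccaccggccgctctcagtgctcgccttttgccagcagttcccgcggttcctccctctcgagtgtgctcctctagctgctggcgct
Dkk2: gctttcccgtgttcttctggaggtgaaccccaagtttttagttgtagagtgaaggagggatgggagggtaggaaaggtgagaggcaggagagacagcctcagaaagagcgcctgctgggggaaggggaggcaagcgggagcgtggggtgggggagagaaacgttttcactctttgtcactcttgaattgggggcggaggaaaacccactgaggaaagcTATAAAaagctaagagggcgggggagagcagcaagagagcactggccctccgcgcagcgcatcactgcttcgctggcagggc
Wnt5b: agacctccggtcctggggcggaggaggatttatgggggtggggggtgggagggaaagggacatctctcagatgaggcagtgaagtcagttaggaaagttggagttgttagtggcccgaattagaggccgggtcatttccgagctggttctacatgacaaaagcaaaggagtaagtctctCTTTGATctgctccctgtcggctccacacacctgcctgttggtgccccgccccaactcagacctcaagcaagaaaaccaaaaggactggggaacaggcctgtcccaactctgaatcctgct
Wnt11: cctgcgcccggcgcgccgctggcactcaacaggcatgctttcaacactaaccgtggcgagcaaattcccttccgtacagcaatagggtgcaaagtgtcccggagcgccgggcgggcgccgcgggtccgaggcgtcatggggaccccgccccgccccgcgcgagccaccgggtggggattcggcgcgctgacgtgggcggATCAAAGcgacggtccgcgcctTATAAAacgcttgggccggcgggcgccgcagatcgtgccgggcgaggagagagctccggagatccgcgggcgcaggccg

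The Sfrp2 window held none of the 3 motifs. Nor did the window of Sfrp5 or the further windows of Wnt5b and Wnt11, which are not printed. The TCF/LEF core was found in 2 of the 30 windows, 71 bases before a start of Wnt5b and 51 bases before a start of Wnt11, and in 3.73% of 32851 promoters. The TATA box was found in 6 windows, including those of Dkk2 (32 bases before the start), Wnt11 (29 bases) and Wif1 (232 bases), and in 13.6% of all promoters. The E-box lay in 4 windows, those of Dvl3, Fzd10, Lgr6 and Wnt9a, and in 16.3% of all promoters. A match describes these letters only and says nothing of binding.

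The comparison of old with young muscle in both controls shows how the genes differ between 2 and 17 months of age. Of the 42 genes, 13 (31.0%) passed the test at an adjusted p under 0.05, against a background of 18.1% of all 15224 genes. Higher in old muscle were 4, where 8.07% of all genes were higher, and lower were 9, where 10.1% were lower. By role, 5 of 7 secreted antagonists, 3 of 9 frizzled receptors, both CCN genes, 2 of 7 ligands and 1 of 4 co-receptors passed. The remaining roles had none by edgeR or by DESeq2, whose calls over the 42 genes numbered 14 against a background of 21.3%. Of the genes in those roles, only Wls had an unadjusted p under 0.05, as did 4920 of all 15224 genes. The median log2 change of the 42 genes was -0.07, and it was -0.01 over all genes.

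The gene with the greatest rise was Dkk3, a secreted Dickkopf-family protein (chromosome 7, 112116017 to 112159057, minus strand, GRCm38). In young floxed muscle its level was 5.81, 20.8 and 16.0 CPM, and in young Cre muscle 13.3, 7.5 and 8.99 CPM. Old floxed libraries had 121, 108 and 102 CPM, and old Cre libraries had 58.4, 46.0 and 140 CPM. Every old control library lay above every young one, and the lowest old value, 46.0 CPM, exceeded the highest young value, 20.8 CPM. The mean rose from 12.1 ± 5.71 to 95.8 ± 36.4 CPM (SD, n = 6 each), a 7.96-fold difference (log2 2.99, SE 0.312, adjusted p = 7.18e-05). The 3 old floxed libraries were close together while the old Cre libraries spread 3-fold, with Cre 34 above all floxed values.

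Of the other antagonists that passed, Sfrp2, Wif1 and Dkk2 fell and Sfrp5 rose. Sfrp2, which binds Wnt proteins outside the cell (chromosome 3, 83766321 to 83774316, plus strand), had a median of 2.85 CPM in young controls (range 1.29 to 3.82) and 0.799 CPM in old controls (range 0.506 to 1.14). No old library reached the lowest young one, and the fall was 3.48-fold (log2 -1.80, SE 0.286, adjusted p = 0.000716). Wif1, the Wnt inhibitory factor (chromosome 10, 121033960 to 121100650, plus strand), had 11.1, 8.13 and 6.40 CPM in young floxed and 1.92, 8.03 and 3.81 CPM in young Cre muscle. Old floxed libraries had 0.920, 1.26 and 2.37 CPM and old Cre libraries 1.27, 2.25 and 0.432 CPM. The groups overlapped only through young Cre 93, and the difference was 4.38-fold (log2 -2.13, SE 0.376, adjusted p = 0.00144).

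Dkk2, which binds Lrp6 (chromosome 3, 132085292 to 132180304, plus strand), fell from a median of 11.5 CPM (range 9.63 to 16.2) to 6.70 CPM (range 3.69 to 9.84). This was a 1.96-fold difference (log2 -0.97, SE 0.191, adjusted p = 0.00289), with old floxed 46 just inside the young range. Sfrp5, a further frizzled-related protein (chromosome 19, 42197971 to 42202252, minus strand), went the other way, from 1.61 CPM (range 1.04 to 2.04) to 2.29 CPM (range 1.87 to 2.83). Its groups overlapped and its change was small (log2 0.58, SE 0.181, adjusted p = 0.0374). Sfrp1 and Sfrp4 did not pass, with log2 changes of -0.77 (SE 0.262, adjusted p = 0.0521) and -0.61 (SE 0.287, adjusted p = 0.156).

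**Figure D2:**
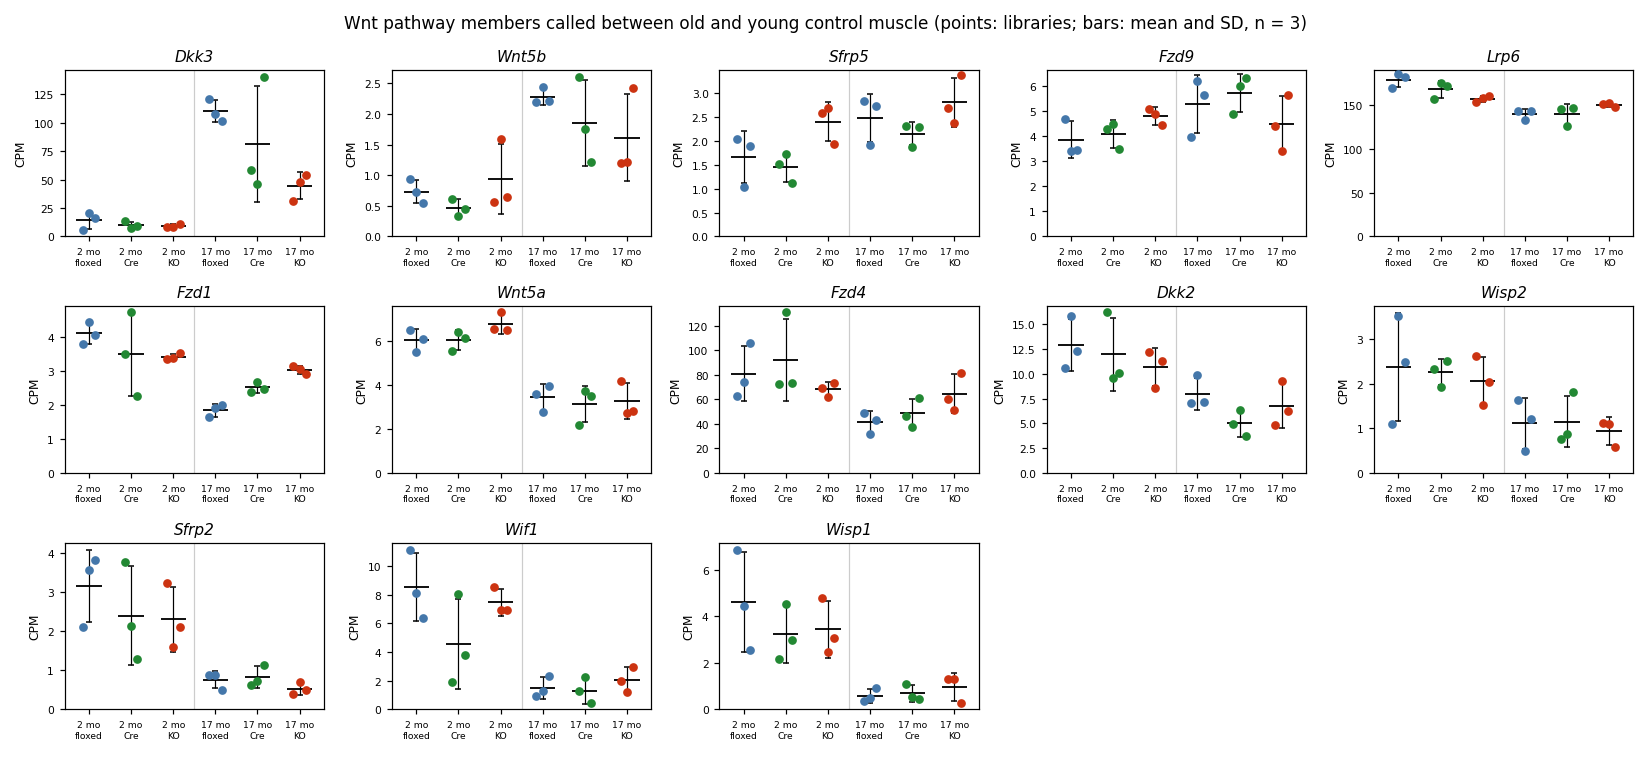
CPM by group for the 13 Wnt pathway genes that passed the test between old and young controls, with points for libraries, bars for the mean and SD (n = 3) and a grey line that parts the ages. Dkk3 and Wnt5b are higher in all old control libraries than in any young one, and Sfrp2, Wisp1, Wnt5a, Fzd4 and Lrp6 are lower in all of them.

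The ligands Wnt5a and Wnt5b, close relatives best known for signalling without beta-catenin, moved in opposite directions. Wnt5a (chromosome 14, 28504750 to 28527448, plus strand) had 6.49, 5.51 and 6.09 CPM in young floxed and 5.56, 6.42 and 6.15 CPM in young Cre muscle. In old muscle it had 3.57, 2.76 and 3.97 CPM in floxed and 2.19, 3.71 and 3.50 CPM in Cre controls. The young libraries were tightly grouped and lay above all old ones, a 1.84-fold fall (log2 -0.88, SE 0.142, adjusted p = 0.000817). Wnt5b (chromosome 6, 119432531 to 119544347, minus strand) had 0.932, 0.720 and 0.551 CPM in young floxed and 0.618, 0.336 and 0.455 CPM in young Cre muscle. Old floxed libraries had 2.19, 2.45 and 2.22 CPM and old Cre libraries 2.61, 1.75 and 1.22 CPM. Again the ages did not overlap, and the rise was 3.49-fold (log2 1.80, SE 0.292, adjusted p = 0.000846), from 9 to 26 counts in the young control libraries to 31 to 68 in the old.

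The other 5 ligands did not pass the test, and all their ranges overlapped. Mean levels in young and old controls were 6.55 ± 2.00 and 7.96 ± 1.07 CPM for Wnt4, and 6.41 ± 0.402 and 7.12 ± 1.15 CPM for Wnt9a (SD, n = 6 each). Wnt11, which acts on cell polarity, had 2.72 ± 0.340 and 3.02 ± 0.774 CPM. Wnt10b had 0.722 ± 0.362 and 0.533 ± 0.245 CPM, and Wnt2b 0.357 ± 0.156 and 0.385 ± 0.135 CPM. At these low levels the intervals were wide: the log2 change of Wnt10b was -0.45, with a 95% interval from -1.20 to 0.30.

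Of the receptors that changed, Fzd4, Fzd1 and Lrp6 were lower with age and Fzd9 was higher. Fzd4, a receptor of vessels among other sites (chromosome 7, 89404355 to 89413134, plus strand), fell from a median of 73.8 CPM (range 63.0 to 131) to 45.0 CPM (range 31.8 to 61.3), a 1.93-fold difference without overlap (log2 -0.95, SE 0.185, adjusted p = 0.00281). Fzd1 (chromosome 5, 4753839 to 4758035, minus strand) fell from 3.93 CPM (range 2.27 to 4.74) to 2.18 CPM (range 1.63 to 2.68), a log2 change of -0.81 (SE 0.141, adjusted p = 0.00126). Lrp6 (chromosome 6, 134446476 to 134566965, minus strand) fell little but evenly, from 174 CPM (range 157 to 185) to 143 CPM (range 126 to 147). That 1.24-fold difference had a log2 of -0.31, an SE of 0.0578 and an adjusted p of 0.00206, and no old control library reached the young range. Fzd9 (chromosome 5, 135248938 to 135251230, minus strand) was higher in old muscle, at 5.82 against 3.88 CPM in the median, with overlapping libraries (log2 0.47, SE 0.145, adjusted p = 0.0345).

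The other 6 frizzled genes had log2 changes from -0.47 for Fzd10 to 0.14 for Fzd7, and none passed. Among co-receptors, Ror1 and Ror2 had log2 changes of -0.59 (SE 0.221) and -0.53 (SE 0.249) that did not pass (adjusted p = 0.0756 and 0.157), and Lrp5 had 11.9 ± 1.75 CPM in young and 13.1 ± 1.40 CPM in old controls.

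Wisp1 and Wisp2 are secreted matrix proteins of the CCN family, known as Wnt-induced proteins in other tissues. Wisp1 (chromosome 15, 66891320 to 66923201, plus strand) had 6.84, 4.43 and 2.55 CPM in young floxed and 2.16, 4.55 and 2.97 CPM in young Cre muscle. It was at 0.354, 0.498 and 0.934 CPM in old floxed and 1.11, 0.530 and 0.432 CPM in old Cre muscle. The fall was 6.01-fold with no overlap (log2 -2.59, SE 0.382, adjusted p = 0.00043). Wisp2 (chromosome 2, 163820861 to 163833146, plus strand) fell 2.05-fold, from a median of 2.41 CPM (range 1.11 to 3.53) to 1.04 CPM (range 0.498 to 1.81), with overlap (log2 -1.04, SE 0.315, adjusted p = 0.0319).

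No gene of the intracellular core or the R-spondin axis passed between the ages by edgeR. Ctnnb1 was at 254 ± 16.2 CPM in young and 243 ± 9.08 CPM in old controls, Apc at 95.9 ± 9.62 and 95 ± 7.63 CPM, and Gsk3b at 58.9 ± 4.79 and 64.6 ± 7.07 CPM. For Ctnnb1 the 95% interval of the log2 change ran from -0.19 to 0.06. Axin2 had 3.61 ± 0.618 and 3.99 ± 1.04 CPM, and Znrf3 3.87 ± 0.496 and 3.81 ± 0.443 CPM. Across the 7 intracellular genes the log2 changes lay between -0.07 and 0.15, whereas the 7 antagonists ranged from -2.13 to 2.99. In the R-spondin axis, Rspo3, a secreted amplifier of Wnt signals, had a log2 change of 0.03 with a wide interval from -0.73 to 0.80, and Lgr4, a receptor of R-spondins, one of -0.02. Lgr6, a further such receptor, had 0.506 ± 0.170 CPM in young and 0.347 ± 0.123 CPM in old controls, a log2 of -0.57 with an interval from -1.39 to 0.24. Porcn and Wls, which load and carry the ligands, had -0.22 and 0.37, and neither passed (adjusted p = 0.239 and 0.135).

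The calls of Wisp2, Fzd9 and Sfrp5 were each lost in most of the fits that left out 1 control library. Wisp2 was lost without young floxed 57 or 92, old floxed 46, young Cre 93 or 61, or old Cre 99 or 35, with adjusted p from 0.0581 to 0.0962. Fzd9 was lost without young floxed 57 or 92, old floxed 46 or 5, young Cre 93 or 61, or old Cre 35 or 34, with adjusted p up to 0.0888. Sfrp5 was lost without young floxed 57, old floxed 48 or 5, young Cre 93 or 61, or old Cre 99 or 34, with adjusted p up to 0.0841. The other 10 genes kept an adjusted p under the threshold whichever of the 12 control libraries was left out.

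Across genes, old and young control libraries did not overlap for 7 of the 42, namely Dkk3, Fzd4, Lrp6, Sfrp2, Wisp1, Wnt5a and Wnt5b, against 7.89% of all genes. With the knockout libraries included, 9 old against 9 young, Dkk3, Lrp6, Sfrp2, Wisp1 and Wnt5a did not overlap, against 1.63% of all genes. Within libraries of high Xist, old controls (n = 4) and young controls (n = 2) had ranges of 46.0 to 108 and 5.81 to 7.5 CPM for Dkk3, 0.506 to 0.881 and 2.11 to 2.13 CPM for Sfrp2, and 1.75 to 2.61 and 0.336 to 0.932 CPM for Wnt5b. Within libraries of low Xist, old (n = 2) and young (n = 4) ranges were 121 to 140 and 8.99 to 20.8 CPM for Dkk3, 0.884 to 1.14 and 1.29 to 3.82 CPM for Sfrp2, and 1.22 to 2.19 and 0.455 to 0.720 CPM for Wnt5b. Since all 12 control libraries were apart by age for these 3 genes, so is any subset of them. Fzd1, whose ages overlapped across the 12, had 1.91 to 2.68 CPM in old and 3.8 to 4.74 CPM in young libraries of high Xist, and overlapped in those of low Xist, at 1.63 to 2.48 and 2.27 to 4.43 CPM. With Xist as a covariate in the fit, all of the 13 genes but Fzd9 (adjusted p = 0.0667) and Sfrp5 (adjusted p = 0.0641) passed.

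Floxed and Cre controls share no library, so each gives its own age difference. Their p values are not separate, since 1 estimate of spread served all 6 groups. In floxed muscle 9 of the 42 genes passed, against 10.5% of all genes, and in Cre muscle 5, against 1.80%. All 9 genes called in floxed muscle had the same direction in Cre muscle, as did 95.3% of all 1605 genes called there. All 5 called in Cre muscle had the same direction in floxed muscle, as did 99.6% of all 274. Dkk3, Wisp1, Wnt5a and Wnt5b passed in both, which is 44.4% of the floxed calls and 80.0% of the Cre calls. Over all genes, 13% of the floxed calls and 76.3% of the Cre calls passed in both. The 5 genes with the smallest p in floxed muscle were Dkk3 (log2 2.95, SE 0.439, adjusted p = 0.00149), Fzd1 (log2 -1.15, SE 0.201, adjusted p = 0.00336), Wisp1 (log2 -2.95, SE 0.545, adjusted p = 0.0044), Sfrp2 (log2 -2.05, SE 0.406, adjusted p = 0.00615) and Wif1 (log2 -2.49, SE 0.53, adjusted p = 0.00878).

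In Cre muscle the 5 were Dkk3 (log2 3.03, SE 0.443, adjusted p = 0.00636), Wnt5a (log2 -0.94, SE 0.201, adjusted p = 0.029), Wnt5b (log2 1.97, SE 0.424, adjusted p = 0.0312), Dkk2 (2.39-fold lower, SE 0.273 on the log2 scale, adjusted p = 0.0329) and Wisp1 (log2 -2.22, SE 0.535, adjusted p = 0.0476). Fzd1, called in floxed muscle, had a log2 of -0.48 in Cre muscle (adjusted p = 0.233), and whether the controls differ in their age change was not tested. DESeq2 called 10 of the 42 genes in floxed muscle, against 15.0% of all, and 9 in Cre muscle, against 4.73%. The authors' deposited table had 10 of the 42 genes at an adjusted p under 0.05 in floxed muscle, against 14.9% of genes with a value, and 9 in Cre muscle, against 4.32%. The floxed count of 9 was 5 without young floxed 92, against 5.8% of all genes, and 4 without old floxed 46, against 2.71%. The Cre count of 5 was 1 without young Cre 93 or old Cre 99, against 0.427% and 0.269% of all genes. It was 2 without young Cre 94 or old Cre 34, against 1.09% and 0.427%, and 3 without old Cre 35, against 1.04%.

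Old against young knockout muscle, which shares no library with the controls, gave 3 called genes of the 42 (7.14%), against 1.09% of all genes. Higher was 1, where 0.552% of all genes were higher, and lower were 2, where 0.539% were lower. Dkk3 had 8.09, 8.36 and 11.3 CPM in young knockout libraries and 31.2, 48.3 and 54.4 CPM in old ones (log2 2.27, SE 0.434, adjusted p = 0.0204). Sfrp2 had 3.23, 1.60 and 2.12 CPM in young and 0.389, 0.703 and 0.510 CPM in old knockout muscle (log2 -2.10, SE 0.427, adjusted p = 0.0251). Wnt5a had 6.53, 7.32 and 6.50 CPM in young and 4.2, 2.74 and 2.82 CPM in old knockout muscle (log2 -1.06, SE 0.201, adjusted p = 0.0201). In each of these 3 genes the old and young knockout libraries did not overlap. The same held, among others, for Lrp6, Wnt11, Fzd5, Wisp1 and Ctnnb1, which did not pass. The share of all genes apart in this way was not counted.

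Next in order of p were Wnt11 (log2 0.54, SE 0.148, adjusted p = 0.093) and Wif1 (log2 -1.85, SE 0.515, adjusted p = 0.0972), which did not pass. Wif1 had 8.58, 6.97 and 6.92 CPM in young and 2.02, 1.22 and 2.98 CPM in old knockout libraries, again without overlap. Of the 13 genes called in controls, 12 had the same direction in the knockout, as did 82.7% of all 2763 genes called there. The exception was Fzd9, with a log2 of -0.10 in the knockout. The 3 genes called in both are 23.1% of the control calls and all of the knockout calls. Over all genes, 4.2% of the control calls and 69.9% of the knockout calls passed in both.

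DESeq2 called 6 of the 42 genes with age in the knockout, against 3.27% of all genes, and the authors' deposited table also had 6, against 3.32%. The deposited 6 were Ctnnb1, Dkk3, Sfrp2, Wif1, Wisp1 and Wnt5a. Ctnnb1 was at 245 to 253 CPM in young and 196 to 226 CPM in old knockout libraries. Its deposited log2 was -0.23 (authors' adjusted p = 0.0282), and edgeR did not call it. The count of 3 was 0 without young knockout 80 or 83, where 0.118% and 0.151% of all genes passed. It was 1 without young knockout 82 (Sfrp2) or old knockout 45 (Dkk3), against 0.46% and 0.65% of all genes, and 2 when old knockout 17 was dropped, against 0.447%. It was 3 after removal of the library labelled old knockout 40, against 1.56% of all genes, with Dkk3, Lgr6 and Wnt5a, since Sfrp2 then had an adjusted p of 0.0551. The highest adjusted p on leaving out 1 library was 0.118 for Dkk3 and 0.127 for Sfrp2, both without young knockout 80, and 0.0785 for Wnt5a, without young knockout 83. Fitted on the knockout libraries alone, where 0.074% of all genes passed, Dkk3 passed, and Wnt5a (adjusted p = 0.101) and Sfrp2 (adjusted p = 0.0912) did not. Wnt5a overlaps the opposite-strand gene Gm2670, Sfrp2 overlaps Gm26771 and Wnt5b overlaps Fbxl14. The strand setting of the counting is not given in the sources used here. Whether reads of these pairs were told apart is thus not known, as holds for 16 of the 42 genes.

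**Figure D3:**
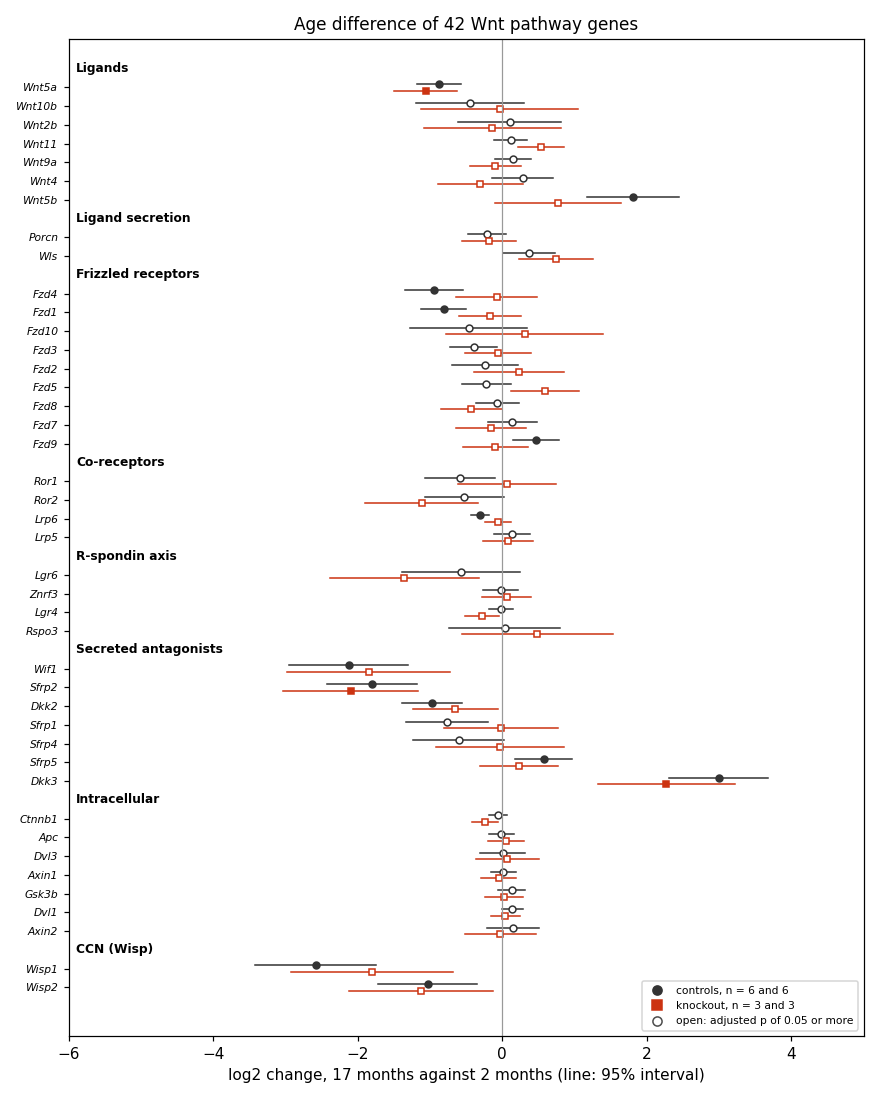
Log2 change of old against young muscle for the 42 Wnt pathway genes by role, with 95% intervals, in controls (black, n = 6 and 6) and in the knockout (red, n = 3 and 3). Filled symbols passed the test. Intracellular genes sit near 0 in both and none passed, though Ctnnb1 is lower in every old knockout library than in any young one. Dkk3 is the highest in both, at 2.99 and 2.27, and the lowest is Wisp1 in controls, at -2.59, and Sfrp2 in the knockout, at -2.10.

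Young knockout and young control muscle were compared to read the loss of Pofut1 in fibres at 2 months. None of the 42 genes passed in edgeR's quasi-likelihood test, against 0.0657% of all genes, and none by DESeq2, against 0.44%. By edgeR, 3 of the 42 had an unadjusted p under 0.05, as did 1298 of all 15224 genes. The 5 genes with the smallest p were Lgr6, Sfrp5, Axin2, Lrp6 and Wnt5b. Lgr6 had 1.44, 1.36 and 1.29 CPM in the knockout and a median of 0.511 CPM (range 0.324 to 0.723) in controls (2.69-fold, SE 0.39 on the log2 scale, adjusted p = 0.29). The knockout libraries thus lay above every control library, at 34 to 39 counts each. Axin2 had 5.20, 5.37 and 4.80 CPM against a median of 3.64 CPM (range 2.82 to 4.44), a log2 of 0.51 (SE 0.194, adjusted p = 0.486), also without overlap.

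Sfrp5 had 2.58, 2.68 and 1.93 CPM in young knockout muscle against a median of 1.61 CPM (range 1.04 to 2.04) in controls (log2 0.63, SE 0.217, adjusted p = 0.429). Lrp6 and Wnt5b had log2 differences of -0.14 (SE 0.0711, adjusted p = 0.608) and 0.68 (SE 0.364, adjusted p = 0.629), the latter carried by knockout 82 at 1.60 CPM beside 0.570 and 0.643 CPM. Without that library the log2 of Wnt5b was 0.05. Libraries of young knockout and young controls did not overlap for Axin2, Lgr6, Porcn and Wnt5a, 4 of 42 genes, against 5.57% of all genes. Against floxed controls alone and against Cre controls alone, none of the 42 passed, where 0.00657% and 0.0131% of all genes did. Each had 3 of the 42 at an unadjusted p under 0.05, as had 960 and 1260 of all 15224 genes. DESeq2 called none in either, against 0.289% and 0.309%.

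At 17 months, 2 of the 42 genes (4.76%) differed between knockout and the average of the floxed and Cre controls, against 1.49% of all genes. Fzd5 was higher, where 0.9% of all genes were higher, and Lgr4 was lower, where 0.591% were lower. Lgr4, a receptor of R-spondins (chromosome 2, 109917647 to 110014257, plus strand), had 38.2, 32.9 and 33.0 CPM in old knockout muscle. In old controls it had 51.8, 50.6 and 44.4 CPM in floxed and 44.2, 44.1 and 44.0 CPM in Cre libraries. All 3 knockout libraries, number 40 included, lay below every old control, and the difference was 1.34-fold (log2 -0.42, SE 0.0942, adjusted p = 0.0395). Fzd5 (chromosome 1, 64730558 to 64737751, minus strand) had 2.60, 2.70 and 3.25 CPM in the knockout, against 1.66, 1.42 and 1.95 CPM in floxed and 1.69, 1.93 and 1.14 CPM in Cre controls. It was 1.74-fold higher without overlap (log2 0.80, SE 0.184, adjusted p = 0.0426), and its locus overlaps the opposite-strand gene Gm38058.

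Both calls depended on single libraries. Lgr4 was lost without old floxed 48 or 46, old Cre 99 or 35, or old knockout 17 or 45, with an adjusted p of up to 0.184. Fzd5 was lost on leaving out any of these, and also number 40, with an adjusted p of up to 0.153. The count of 2 was 1 without the library labelled old knockout 40, against 6.83% of all genes in that fit, a share above that of the 42. That fit kept Lgr4 (log2 -0.39, adjusted p = 0.0489) and left Fzd5 at a log2 of 0.70 (adjusted p = 0.0581). It was 0 without old floxed 48 or 46, old Cre 99 or 35, or old knockout 17 or 45, where at most 0.092% of all genes passed. Fitted on the 17-month libraries alone, where 0.0133% of all genes passed, neither Lgr4 (adjusted p = 0.149) nor Fzd5 (adjusted p = 0.16) passed. DESeq2 called 4 of the 42 genes, Ctnnb1, Fzd5, Lgr4 and Wnt11, against 8.3% of all.

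The genes next in order of p in old knockout muscle were Wnt11, Dkk3 and Fzd1, and none of them passed. Wnt11 (chromosome 7, 98835112 to 98855195, plus strand) had 3.65, 4.55 and 4.16 CPM in the knockout, 2.16, 2.37 and 2.49 CPM in floxed and 3.80, 3.37 and 3.93 CPM in Cre controls (log2 0.49, SE 0.126, adjusted p = 0.0626). The knockout lay above the floxed libraries and overlapped the Cre libraries. Dkk3 had 31.2, 48.3 and 54.4 CPM, below the 102 to 121 CPM of old floxed libraries and overlapping the 46.0 to 140 CPM of old Cre libraries (log2 -1.08, SE 0.369, adjusted p = 0.107). Fzd1 had 3.15, 3.04 and 2.9 CPM against 1.63 to 2.68 CPM in old controls, with no overlap (log2 0.49, SE 0.171, adjusted p = 0.113).

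**Figure D4:**
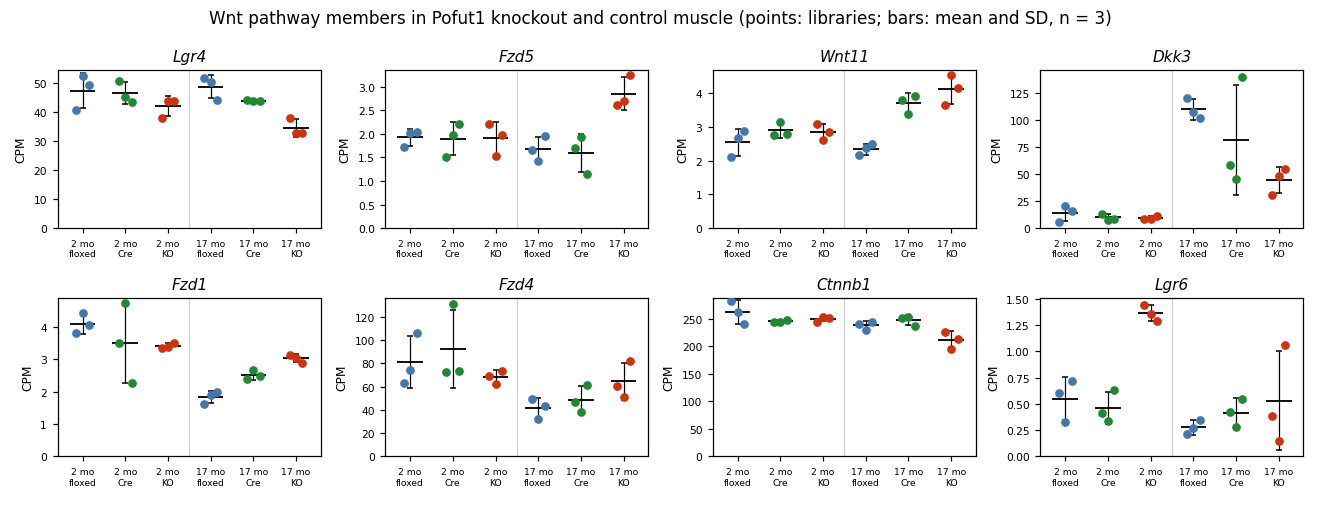
CPM by group for 8 Wnt pathway genes picked from the knockout comparisons after their values were seen, with points for libraries and bars for the mean and SD (n = 3). Old knockout libraries lie below all old controls for Lgr4 (32.9 to 38.2 CPM) and above them for Fzd5 (2.60 to 3.25 CPM), and young knockout libraries lie above young controls for Lgr6 (1.29 to 1.44 CPM).

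Libraries of old knockout and old controls did not overlap for 7 of the 42 genes, Ctnnb1, Fzd1, Fzd2, Fzd5, Lgr4, Lrp6 and Znrf3, against 8.21% of all genes. Ctnnb1 was at 226, 196 and 214 CPM in the old knockout and 229 to 253 CPM in old controls, a log2 of -0.20 (SE 0.0711, adjusted p = 0.126). Lrp6 was at 151, 152 and 148 CPM against 126 to 147 CPM, and Znrf3 at 4.97, 4.37 and 4.78 CPM against 3.28 to 4.30 CPM. The differences in these 3 genes were small, and none passed the test.

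Set against each control alone at 17 months, the knockout gave 2 called genes beside floxed muscle, against 3.74% of all genes, and none beside Cre muscle, against 0.0131%. Against floxed controls these were Wnt11 (log2 0.82, SE 0.15, adjusted p = 0.0351) and Lgr4 (log2 -0.50, SE 0.107, adjusted p = 0.0368). Against Cre controls Wnt11 overlapped their range, with libraries 45 and 40 above it. The smallest p there belonged to Fzd5 (log2 0.84, SE 0.219, adjusted p = 0.179) and Lgr4 (log2 -0.35, SE 0.107, adjusted p = 0.245). In that comparison 3 of the 42 had an unadjusted p under 0.05, as did 1950 of all 15224 genes. DESeq2 called 5 genes against floxed controls, against 14.6% of all, and none against Cre controls, against 0.955%. By the adjusted p of the authors' deposited table, 5 of the 42 passed against floxed controls, namely Dkk3, Fzd1, Fzd5, Lgr4 and Wnt11, against 12.5% of genes with a value there, which 4 of the 42 lacked. The count of 2 was 0 without old floxed 48 or 46 or old knockout 17 or 45, 5 without old floxed 5, against 12.8% of all genes, and 3 without the library labelled old knockout 40, against 9.45%.

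Cre and floxed controls over both ages differed in none of the 42 genes by edgeR, against 0.131% of all genes, nor by DESeq2, against 0.322%. The 2 genes at an unadjusted p under 0.05 were Wnt11, at a log2 of 0.42 (SE 0.106, adjusted p = 0.359), and Rspo3, at a log2 of -1.14 (SE 0.342, adjusted p = 0.48). Over all 15224 genes, 1013 had an unadjusted p under 0.05. Old Cre libraries of Rspo3 had 0.499, 0.499 and 0.511 CPM, and old floxed ones had 1.03, 1.61 and 1.79 CPM. At 17 months these 2 control groups did not overlap for Rspo3 or Wnt11, nor for Fzd1, Fzd2, Dkk2 and Lgr4. The share of all genes apart in this way was not counted.

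Whether the knockout altered the age difference was asked with an interaction term. None of the 42 genes passed by edgeR, against 0.0% of all genes, nor by DESeq2, against 0.549%. By edgeR, 6 of the 42 had an unadjusted p under 0.05, as did 1714 of all 15224 genes. The 5 smallest belonged to Fzd5 (log2 0.81, SE 0.267, adjusted p = 0.323), Fzd4 (log2 0.87, SE 0.318, adjusted p = 0.361), Fzd1 (log2 0.64, SE 0.241, adjusted p = 0.37), Lrp6 (log2 0.25, SE 0.1, adjusted p = 0.398) and Wnt11 (log2 0.42, SE 0.182, adjusted p = 0.418). Of these, Fzd4, Fzd1 and Lrp6 fell with age in controls, and in the knockout their age changes were -0.08, -0.17 and -0.06. Fzd4 had 68.9, 62.2 and 73.4 CPM in young and 60.7, 51.0 and 81.9 CPM in old knockout libraries, which overlap. Fzd1, at 3.34 to 3.52 CPM in young and 2.9 to 3.15 CPM in old knockout libraries, did not overlap. Nor did Lrp6, at 153 to 160 and 148 to 152 CPM. The share of all genes apart in this way was not counted. With no interaction past the threshold, the age changes of these receptors are not shown to differ between genotypes.

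Cell type markers moved with age in the same libraries. In whole muscle, fewer cells of a type and less RNA per cell cannot be told apart. Over all genes 10.1% were lower and 8.07% higher in old controls. Of 10 markers of fibro-adipogenic cells, the resident connective tissue cells, 9 were lower in old controls, and their summed level ranged from 2100 to 3150 CPM in young and 1100 to 1450 CPM in old libraries. Of 7 tendon markers 5 were lower, with sums of 179 to 321 and 116 to 164 CPM. All 10 fibro-adipogenic and all 7 tendon markers were detected in the table, including Pdgfra at 91.2 ± 9.33 CPM in young and 59.3 ± 9.23 CPM in old controls. The part of these cells in the falls of Sfrp2, Wif1, Dkk2, Wisp1, Wisp2, Wnt5a, Fzd1 and Fzd4 was not tested.

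Of 7 endothelial markers 2 were lower in old controls, with sums of 176 to 281 CPM in young and 117 to 214 CPM in old libraries, beside the fall of Fzd4. Of 9 fibre markers none passed by edgeR. Lower in old controls were also 3 of 7 smooth muscle and pericyte markers, 2 of 7 satellite cell markers, 1 of 5 macrophage markers and 1 of 6 nerve markers, while 1 of 6 adipocyte and 1 of 3 lymphocyte markers were higher, against 10.1% of all genes lower and 8.07% higher. In knockout muscle the fibro-adipogenic sum was 2020 to 2870 CPM in young and 1140 to 2000 CPM in old libraries, and the tendon sum 285 to 344 and 139 to 185 CPM. In old knockout muscle the fibro-adipogenic sum was 1870 CPM in library 17, 2000 CPM in library 45 and 1140 CPM in the library labelled 40. Of the 10 fibro-adipogenic markers, 1 passed as higher there than in old controls, where 0.9% of all genes were higher. For 6 markers of immature fibres, such as Myh3, all 6 passed as higher in old knockout muscle than in old controls, against the same 0.9%. Their sums, however, were 289, 870 and 71.9 CPM against 51.4 to 113 CPM. The sum of 7 satellite cell markers was 96.4, 108 and 86.9 CPM in libraries 17, 45 and 40, above the 58.7 to 83.3 CPM of old controls in all 3. Of the 7, 1 passed as higher, against 0.9% of all genes. Against old Cre controls alone, where 0.0131% of all genes passed, no immature fibre, satellite cell or fibro-adipogenic marker did. The part of these markers in the knockout differences was not tested.

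**Figure D5:**
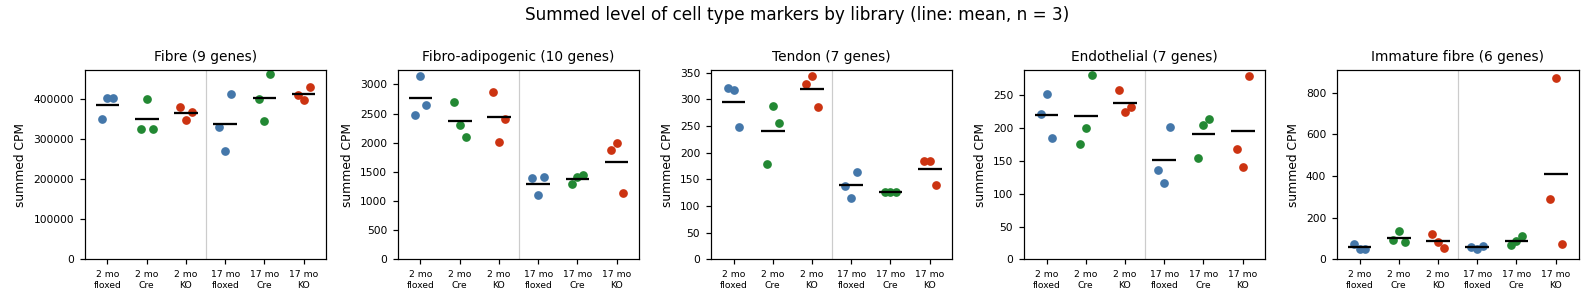
Summed CPM of cell type markers in each library by group, with a line at the mean (n = 3), for fibre, fibro-adipogenic, tendon, endothelial and immature fibre markers. Fibro-adipogenic and tendon sums are lower in every old control library than in any young one, and old knockout libraries 17 and 45 stand out for immature fibre markers at 289 and 870 CPM.

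Other genes of the pathway were read from lists of targets, destruction complex genes, nuclear partners, surface and extracellular modulators, and polarity or calcium genes. Of 15 measured targets in the age comparison of controls, 2 rose and 2 fell, where 8.07% of all genes rose and 10.1% fell, with a median log2 of -0.25. The same shares are the background of the other lists in this comparison. The risers were Jun, from 29.2 ± 4.45 to 45.6 ± 2.87 CPM (adjusted p = 0.000363), and the receptor Tnfrsf19, from 12 ± 4.94 to 22.1 ± 4.37 CPM (adjusted p = 0.0297). The hyaluronan receptor Cd44 (log2 -0.61, adjusted p = 0.0276) and the growth factor Bmp4 (log2 -0.41, adjusted p = 0.0443) fell. Targets thus moved in both directions, and Axin2 did not pass.

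Among 24 measured surface and extracellular modulators, 1 rose and 6 fell, with a median log2 of -0.33. Those with the smallest p were the heparan sulfatase Sulf1 (log2 -0.66, adjusted p = 0.00032), the proteoglycan Sdc2 (log2 -0.71, adjusted p = 0.00102), the matrix proteoglycan Bgn (log2 -0.82, adjusted p = 0.00247) and Reck (log2 -0.62, adjusted p = 0.00612), a co-receptor for Wnt7 ligands. The riser was Kremen1, a receptor of Dickkopf proteins (log2 0.34, adjusted p = 0.0167). Over all genes 8.07% rose and 10.1% fell.

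The 31 polarity and calcium genes gave 3 rises and 7 falls, against 8.07% and 10.1% of all genes. Camk2b, a calcium-dependent kinase, rose 2.04-fold from 50.0 ± 9.36 to 102 ± 13.1 CPM (adjusted p = 9.3e-05), and Ppp3cb, a calcineurin subunit, rose (log2 0.35, adjusted p = 0.0028). The formin Daam2 (log2 -0.80, adjusted p = 0.00456) and Invs (log2 -0.57, adjusted p = 0.00894), the gene of inversin, fell. Of 20 destruction complex genes, Csnk1g2 (log2 0.29, adjusted p = 0.00855) and Gsk3a (log2 0.27, adjusted p = 0.0115) rose and Frat2 (log2 -0.85, adjusted p = 0.00513) fell. Of 20 nuclear partners, the co-repressor Tle3 (log2 -0.54, adjusted p = 0.0166) and the deacetylase Hdac1 (log2 -0.38, adjusted p = 0.04) fell. The called shares of the last 2 lists, 3 of 20 and 2 of 20, were below the 18.1% of all genes.

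In knockout muscle Camk2b alone of these lists passed with age (log2 1.05, adjusted p = 0.00948), at 50.3 ± 6.44 CPM in young and 104 ± 13.0 CPM in old libraries (SD, n = 3 each). In old knockout against old control muscle Bgn (log2 1.05, SE 0.185, adjusted p = 0.0289) and Sulf1 (log2 0.56, SE 0.112, adjusted p = 0.0338) were higher, both of which fell with age in controls. Bgn was at 30.3 ± 11.2 CPM in old knockout (n = 3), 14.7 ± 0.696 CPM in old control (n = 6) and 25.9 ± 3.30 CPM in young control muscle (n = 6). No gene of the lists passed between young knockout and young controls by edgeR.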

How the data were processed

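RNA of whole quadriceps, depleted of ribosomal RNA and made into libraries with the ScriptSeq v2 kit per the labels' protocols, was read in 18 libraries. The authors deposited 1 table with raw read counts per gene and library, beside log2 fold changes and p-values of their own comparisons. STAR, HTSeq and DESeq2 and the builds GRCh38.p5 and GRCm38.p4 are named, with no roles, per the submitters' processing notes. For versions, options and strand, the setting is not given in the sources used here. Another 18 columns of normalized values per library were not used. Groups came from the labels.

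Counts were tested with edgeR 4.0.16 (quasi-likelihood F-test, TMM factors 0.91 to 1.07, R 4.3.3, limma 3.58.1) in 1 model of all 6 groups, with Benjamini-Hochberg adjustment over 15224 genes. A gene was called at an adjusted p under 0.05. The filter (filterByExpr, minimum count 10) removed no gene, and the lowest total of a gene was 67. The SE is the log2 change over the root of F, 95% intervals use 12 residual degrees of freedom, and the coefficient of biological variation was 20.1%. CPM used TMM-scaled library sizes. High Xist means above 10 CPM. Coordinates and exon lengths come from GENCODE M21 (GRCm38), with Wisp1 and Wisp2 matched by Entrez number, and promoters from RefSeq (GRCm38.p6). The code was tested on simulated data.

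Values are given for every gene called in the 5 main comparisons (age in controls, age in the knockout, knockout at each age, interaction) and for those with the smallest p up to 5, for called genes up to 5 elsewhere, and for fixed genes of each role. The genes and lists were chosen with earlier results of these data known. Alternatives were DESeq2 1.42.0, RLE factors, Xist as a covariate, a fit restricted to the groups compared, a mean of at least 1 CPM, no filter and leaving out each library. Tcf7, Lef1, Rnf43 and other names of the rule with no row are not analysed here.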

Additional observations from a re-analysis of the deposited data

Results flagged for a closer look

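Fzd7, a frizzled receptor, was the only gene with a library far from the others of its group, of 84 groups of 6 control libraries checked. Young Cre 94 had 42.3 CPM, and the other 5 young control libraries had 26.3 to 31.9 CPM. Chance flags about 1 in 20 such groups.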

How the results depend on the processing

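No named change reversed under any alternative. RLE factors changed no call of a named gene. The run without a filter repeats the main fit, since the filter removed no gene, so it tests nothing. DESeq2 called 6 of the 42 genes for age in the knockout, 4 for old knockout against old controls, 9 for age in Cre and 5 for old knockout against old floxed muscle, against 3.27%, 8.3%, 4.73% and 14.6% of all genes. Fitting only the groups compared gave 1, 0, 1 and 0 for the same comparisons, against 0.074%, 0.0133%, 0.724% and 0% of all genes; the interaction needs all groups and has no such fit. With Xist as a covariate, age in the knockout gave 5 (1.49% of all genes) and old knockout against old floxed muscle 4 (5.7%), and the latter was also 4 when genes averaging under 1 CPM were left out (6.17%). Leaving out 1 library gave 10 to 14 for age in controls, against 11.9% to 19.4% of all genes. It gave 4 to 10 for age in floxed (2.71% to 14.9%) and 1 to 4 for age in Cre (0.269% to 1.09%). For age in the knockout it gave 0 to 3 (0.118% to 1.56%). Old knockout gave 0 to 3 against old controls (0.00657% to 6.83%) and 0 to 5 against old floxed muscle (0% to 12.8%). With Xist as a covariate Fzd9 and Sfrp5 lost their age call in controls (adjusted p = 0.0667 and 0.0641), and Sfrp5 also when only the controls were fitted (adjusted p = 0.0558). The cause of these shifts was not tested. The comparisons with no called gene gave 0 in every alternative run. Lgr6, Wnt5b, Sfrp2 and Wnt2b rest on few counts, so their intervals are wide. No paired analysis was possible because the groups compared share no replicate numbers.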
